A study of Mus musculus with 50 samples.

Results

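Decorin (Dcn), biglycan (Bgn) and lumican (Lum) were followed in a spatial transcript data set from livers of mice with and without the histone chaperone HIRA in their hepatocytes. They are 3 of the 1000 gene targets of the panel and were taken by name, with every count assigned to them in any cell. Transcripts were decoded in place on sections of the median lobe by CosMx spatial molecular imaging, in which each spot is read as 1 transcript of 1 target and assigned to a segmented cell. The 50 fields of view came from 6 tissue areas on 1 slide, 3 Control and 3 HIRA KO, and the area served as the replicate. Control mice were wildtype C57BL/6 and HIRA KO mice were HIRA fl/fl on C57BL/6, and both groups received AAV8 Tbg-Cre when 6 months old and were collected 12 months later, at 18 months. The Tbg promoter drives Cre in hepatocytes, so mesenchymal cells, in which these genes were highest, were not the cells targeted for deletion. The labels name no mouse. The study's methods state 3 biological replicates, but since the labels do not tie an area to an animal, p-values measure the spread between areas. Control and HIRA KO tissue occupied opposite sides of the slide, so genotype and side cannot be told apart. Hira is not among the targets (0 of 1000), and the deletion could not be checked.

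Decorin, biglycan and lumican are small leucine-rich proteoglycans, secreted proteins with a horseshoe-shaped core of leucine-rich repeats that carries glycosaminoglycan chains. Decorin and lumican bind fibrillar collagen and limit how fibrils grow and pack, decorin and biglycan bind TGF-beta, and free biglycan is recognised by Toll-like receptors on macrophages. In liver they are known as products of stellate cells, portal fibroblasts and myofibroblasts, and they accumulate in scar tissue. In RefSeq on GRCm38.p6, Dcn lies on chromosome 10 from 97479500 to 97518163 and Lum on the same chromosome from 97565501 to 97572703, 47.3 kb beyond the end of Dcn, whereas Bgn lies on chromosome X from 73483601 to 73495936. The panel tables give no probe positions.

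Of 52132 segmented cells, 49665 passed the filters of the study's methods, which removed cells under 20 counts or of an area over 5 times the geometric mean. The areas held 6801 to 10171 cells and 718991 to 1542205 gene counts each, with a median of 88 to 147 counts per cell. Dcn and Bgn were among the most abundant targets, with 20878 counts (rank 31 of 1000) and 21593 counts (rank 28) in these cells. Lum had 4616 counts (rank 582). The highest of 10 negative probes, which match no transcript, had 3828 counts and their median was 3057, so that Lum lay only a little above the background of the assay over all cells.

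Because Dcn is one of the genes by which the study's methods recognise stellate cells, cells were clustered on the other 997 targets, and a level of a member in a class is therefore not set by the clustering. Clusters were named from marker genes with the ending "-like". One cluster of 3849 cells was stellate-like, with all 8 stellate markers of the panel raised. Its 10 leading genes included 3 stellate markers (Cxcl12, Bmp5 and Hgf) and also 3 collagen genes listed as portal fibroblast markers. A cluster of 652 cells led by Gsn, Mgp and Dpt was portal fibroblast-like, and 1 of 758 cells led by Acta2, Tagln and Myl9 was smooth muscle/myofibroblast-like. These 5259 mesenchymal-like cells made up 10.6% of cells and 8.05% of gene counts. They held 30.02% of Dcn counts, 26.4% of Bgn counts and 15.4% of Lum counts.

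All members were higher in mesenchymal-like cells than in all other cells, by 4.93-fold for Dcn, 3.91-fold for Bgn and 1.83-fold for Lum. Levels are given as CPM, a target's counts over all gene counts of the same cells, summed per area and scaled to 1 fixed total. Dcn, the collagen-binding decorin, was at 11887 ± 3243 CPM (SD, n = 6 areas) in mesenchymal-like and 2375 ± 487 CPM in other cells. The difference was 2.303 ± 0.29 on the log2 scale of CPM + 10 and was positive in 6 of 6 areas. Bgn was at 9838 ± 2263 against 2528 ± 655 CPM, a difference of 1.97 ± 0.19 in 6 of 6 areas. Lum was at 1169 ± 382 against 612 ± 67.1 CPM, a difference of 0.87 ± 0.37, again in 6 of 6 areas. Each of these had p = 0.031 in an exact two-sided sign-flip permutation test over the 6 areas, the smallest that 6 areas allow, and an adjusted p = 0.0469 over the 12 comparisons between classes. With classes assigned by marker counts the differences were smaller, at 1.12 for Dcn, 0.84 for Bgn and 0.43 for Lum on the log2 scale, each in 6 of 6 areas (exact permutation p = 0.031). The highest negative probe averaged 527 CPM in mesenchymal-like and 567 CPM in other cells, so that Lum in other cells stood close to it.

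The mesenchymal classes did not carry the members in the same proportions. Dcn was highest in stellate-like cells at 13732 ± 3510 CPM, with 8073 ± 2659 CPM in portal fibroblast-like and 4383 ± 1210 CPM in smooth muscle/myofibroblast-like cells. Stellate-like exceeded portal fibroblast-like cells by 0.81 ± 0.44 (log2) and smooth muscle/myofibroblast-like cells by 1.64 ± 0.44, each in 6 of 6 areas (exact permutation test, adjusted p = 0.0469). Bgn was at 10505 ± 2268 CPM in stellate-like and 10117 ± 2089 CPM in portal fibroblast-like cells, a difference of 0.05 ± 0.17 that was within the spread between areas (4 of 6 areas, exact permutation adjusted p = 0.511). Both classes were above the 5678 ± 1769 CPM of smooth muscle/myofibroblast-like cells in 6 of 6 areas, by 0.92 ± 0.27 and 0.87 ± 0.28 (adjusted p = 0.0469 each, exact permutation test). Lum was at 1235 ± 438 CPM in stellate-like, 1249 ± 409 CPM in portal fibroblast-like and 649 ± 210 CPM in smooth muscle/myofibroblast-like cells. Stellate-like cells exceeded the last by 0.92 ± 0.55 in 6 of 6 areas (exact permutation adjusted p = 0.0469). In that last class Lum did not exceed the highest negative probe, which averaged 704 CPM there, beside 395 CPM for the mean negative probe. The levels of Lum by class depended on the clustering. Pooled over areas, Lum was at 1385 CPM in the stellate-like and 1305 CPM in the portal fibroblast-like cluster. With finer clusters it was at 1068 CPM in a stellate-named cluster of 2294 cells. A portal fibroblast-named cluster of 1588 cells led by Col3a1, Col1a1 and Col1a2 had 1858 CPM. It had 7 of 8 stellate and 6 of 11 portal fibroblast markers raised. The other portal fibroblast-named clusters, of 984 and 147 cells, had 1208 and 915 CPM. The 147 cells were led by Gpnmb, Ctsd and Lgals3, with 0 of 8 stellate and only 3 of 11 portal fibroblast markers raised. Their name is therefore weakly based.

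Bgn relative to Dcn was lowest in stellate-like cells among the mesenchymal classes. The log2 ratio of Bgn to Dcn was higher in portal fibroblast-like than in stellate-like cells by 0.75 ± 0.45 and higher in smooth muscle/myofibroblast-like than in stellate-like cells by 0.72 ± 0.42, in 6 of 6 areas each. Outside the mesenchymal classes the same ratio was higher in cholangiocyte-like than in hepatocyte-like cells by 0.98 ± 0.15 in 6 of 6 areas. Each of these 3 comparisons had p = 0.031 and adjusted p = 0.031 in the exact sign-flip permutation test. The pairs of classes were chosen singly, and the adjustment covers only these 3 and not the choice.

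Among the other classes Dcn was at 4148 ± 1282 CPM in Kupffer-like, 3635 ± 839 CPM in monocyte/dendritic-like, 3306 ± 808 CPM in T/NK-like, 2846 ± 570 CPM in endothelial-like, 2836 ± 793 CPM in neutrophil-like, 2260 ± 430 CPM in cholangiocyte-like and 1666 ± 299 CPM in hepatocyte-like cells. Bgn ran from 4543 ± 1096 CPM in cholangiocyte-like and 4228 ± 1554 CPM in monocyte/dendritic-like cells down to 2637 ± 510 CPM in neutrophil-like and 1690 ± 387 CPM in hepatocyte-like cells. Lum lay between 571 ± 56.3 CPM in hepatocyte-like and 745 ± 125 CPM in T/NK-like cells, against a highest negative probe of 650 and 616 CPM in the same classes. In neutrophil-like cells Lum was at 667 ± 304 CPM, below a highest negative probe of 869 CPM and above a mean negative probe of 496 CPM. Adjusted over the 27 comparisons of neighbouring classes in the order of each member, no pair passed the test (lowest adjusted p = 0.141, exact permutation test). These include stellate-like over portal fibroblast-like cells for Dcn and portal fibroblast-like over smooth muscle/myofibroblast-like cells for Bgn, which passed only with adjustment over the 12 comparisons given above (exact permutation adjusted p = 0.0469).

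**Figure D1:**
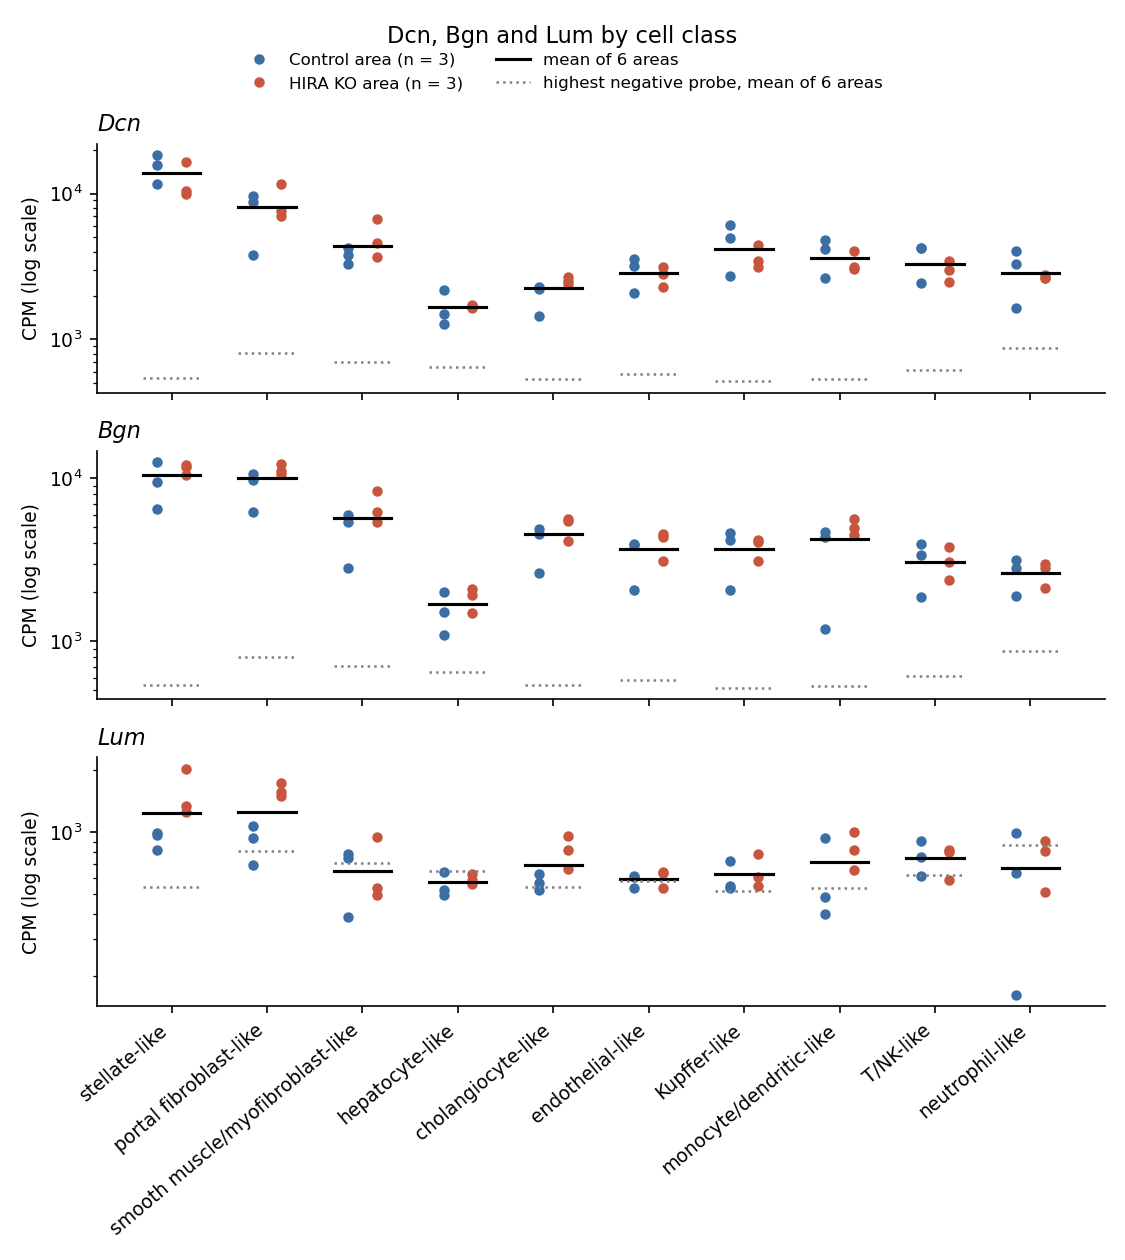
Level of Dcn, Bgn and Lum in each class of cells, in CPM on a log scale; each point is 1 tissue area (blue Control, red HIRA KO, n = 3 each), the black line is the mean of 6 areas and the dotted line the highest negative probe. Dcn and Bgn stand above the negative probes in every class and are highest in stellate-like and portal fibroblast-like cells, whereas Lum reaches 1235 and 1249 CPM in those and lies between 571 and 745 CPM in the others.

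Transcripts in cells of other classes were examined by their distance from mesenchymal-like cells, a comparison chosen after the data were seen. In hepatocyte-like cells with a mesenchymal-like cell within 100 pixels Dcn was at 2242 ± 364 CPM, against 1423 ± 276 CPM in those with none within 300 pixels. This was 1.58-fold, a difference of 0.66 ± 0.18 (log2) in 6 of 6 areas. Bgn was at 2287 ± 470 against 1499 ± 367 CPM, higher in 5 of 6 areas, and Lum at 564 ± 159 against 541 ± 50.5 CPM, higher in 3 of 6. In Kupffer-like cells Dcn was at 5242 ± 1804 near and 4003 ± 1851 CPM far, higher in 6 of 6 areas. After adjustment over the 9 comparisons of 3 classes none passed (lowest adjusted p = 0.141, exact permutation test), and 6 areas cannot give a p below 0.031.

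Mesenchymal-like cells with 1 member held another more often than cells without it, and with all counts so did hepatocyte-like cells. Of the 5259 mesenchymal-like cells, 316 (6.01%) had at least 1 count of every member, 1532 (29.1%) had Dcn and Bgn without Lum, and 1436 (27.3%) had none. Lum without Dcn or Bgn was found in 72 cells (1.37%), whereas 418 of the 584 cells with Lum also had Dcn and 410 also had Bgn. In hepatocyte-like cells, which were deeper with a median of 139 counts against 89, all members were found in 164 of 19312 cells (0.849%). Cells with several counts were common for Dcn and Bgn and rare for Lum: 30.8%, 27.5% and 2.02% of mesenchymal-like cells had 2 counts or more, against 5.53%, 5.31% and 0.808% of hepatocyte-like cells.

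In mesenchymal-like cells Dcn was detected in 66.3 ± 5.6% of cells with Bgn and in 38.3 ± 3.8% of cells without it (SD, n = 6 areas), 27.97 ± 2.8 points more. With Lum the share was 72.9 ± 8.3% and without it 50.7 ± 5.3%, 22.2 ± 3.6 points more. Bgn was detected in 68.5 ± 8.1% of cells with Lum and in 50.7 ± 6.9% of cells without it, 17.8 ± 3.5 points more. All differences were positive in 6 of 6 areas (exact sign-flip permutation test, p = 0.031, adjusted p = 0.031 over 3 pairs).

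Cells with a second member also held more counts of all targets, as in Control 1, where the median was 97 counts in cells with Bgn and 63.5 in cells without it. With every cell thinned to 50 counts, which left out 546 shallower mesenchymal-like cells of Control and 586 of HIRA KO areas, the Dcn and Bgn difference was 12.7 ± 3.8 points and stayed positive in 6 of 6 areas (exact permutation p = 0.031, adjusted p = 0.0938). The Dcn and Lum difference was then 12.2 ± 14.1 points in 5 of 6 areas and the Bgn and Lum difference 5.65 ± 4.56 points in 5 of 6 (exact permutation p = 0.125 and 0.0625). In stellate-like cells alone, thinned the same way, the Dcn and Bgn difference was 9.06 ± 4.18 points in 6 of 6 areas (exact permutation p = 0.031). There the Dcn and Lum difference was 6.33 ± 16.6 points and the Bgn and Lum difference 5.0 ± 6.1 points, each in 4 of 6 areas (exact permutation p = 0.4375 and 0.1875). In hepatocyte-like cells the Dcn and Bgn difference was 17.2 ± 4.0 points in 6 of 6 areas with all counts. Thinned the same way it was 4.51 ± 4.01 points in 4 of 6 areas (exact permutation p = 0.125).

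**Figure D2:**
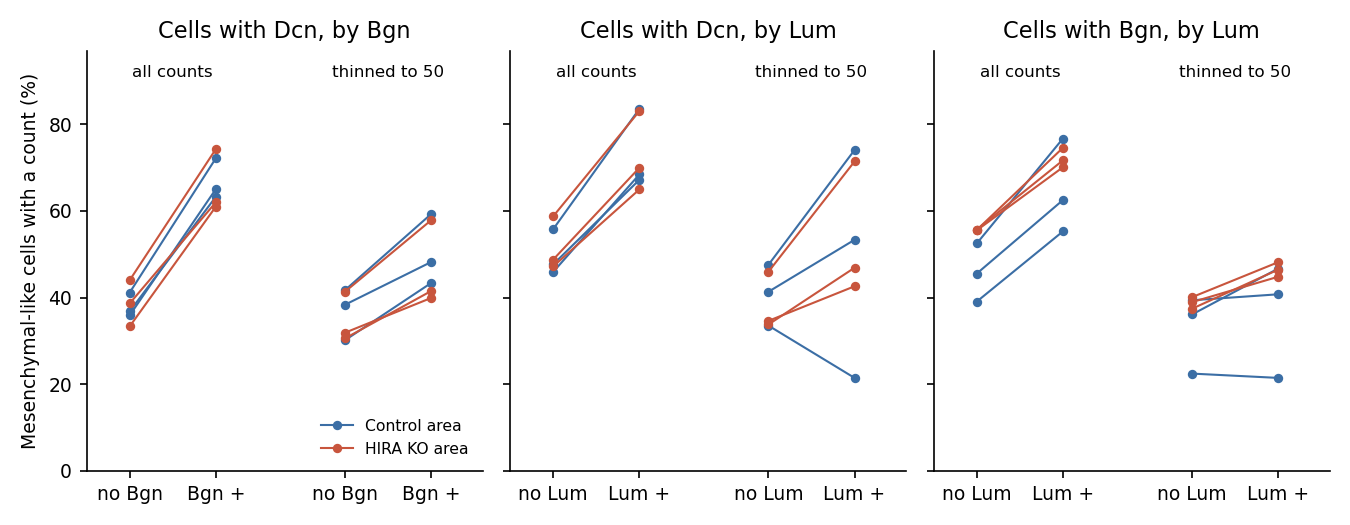
Share of mesenchymal-like cells with a count of the first member (percent, vertical axis) among cells without and with a count of the second; each line joins the values of 1 tissue area (blue Control, red HIRA KO), with all counts at the left of each panel and every cell thinned to 50 counts at the right. All lines rise with all counts and, for Dcn by Bgn, also after thinning, where the differences run from 8.02 to 17.6 points.

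Across the 21 clusters, with levels as log2(CPM + 100) and 756 targets compared, Dcn correlated with Bgn at r = 0.91 and with Lum at 0.81, and Bgn with Lum at 0.84. The clusters share libraries and the lists below share genes with the markers, so these values describe the panel and carry no test. The targets most like Dcn were Col14a1, a fibril-associated collagen (r = 0.93), Bgn, Bmp5, a ligand of the BMP family (0.86), and Col1a1 and Col1a2, the chains of type I collagen (0.84 and 0.83). Those most like Bgn were Dcn, Igfbp7, a secreted insulin-like growth factor binding protein (0.90), Col1a1 (0.87), Col14a1 (0.84) and Lum. Those most like Lum were Mmp2, a gelatinase (0.86), Col14a1 (0.85), Col1a1 (0.84), Bgn and Col6a3, a chain of type VI collagen (0.83).

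Lum was the only member called between genotypes, and it was higher in mesenchymal-like cells of HIRA KO livers. In the Control areas 1, 2 and 3 Lum in mesenchymal-like cells was at 934, 797 and 928 CPM, and in the HIRA KO areas at 1260, 1852 and 1244 CPM. Every HIRA KO area was above every Control area, and the share of all targets that separated in this way is not given here. The log2 fold change of HIRA KO over Control was 0.77 ± 0.18 (SE), 1.71-fold (edgeR quasi-likelihood test, adjusted p = 0.0430 over 998 targets). In this comparison 5 of the 998 targets were called (0.501%), 4 higher and 1 lower in HIRA KO, and Lum was 1 of the 4. The mean negative probe was at 330, 375 and 374 CPM in the Control areas and at 372, 422 and 317 CPM in the HIRA KO areas, so the groups overlapped in it.

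The call for Lum depended on which areas and cells entered the test. It was kept without HIRA KO 3 (adjusted p = 0.0306, edgeR) and lost when any of the other 5 areas was left out, with log2 fold changes from 0.54 to 0.89 and adjusted p up to 0.753. Among cells with at least 50 counts the log2 fold change was 0.67 (edgeR adjusted p = 0.125), and with mesenchymal cells taken by their marker counts in place of clusters it was 0.57 (adjusted p = 0.483).

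By class, Lum rose in stellate-like cells, from 970, 816 and 987 CPM in the Control areas to 1338, 2036 and 1259 CPM in the HIRA KO areas, with no overlap. The log2 fold change was 0.79 ± 0.19 (SE, edgeR adjusted p = 0.00943), where 10 of 998 targets (1.0%) were called. In which of the finer clusters given above this rise lay was not tested. In portal fibroblast-like cells Lum was at 1071, 689 and 938 CPM in Control and 1566, 1505 and 1726 CPM in HIRA KO areas. These groups did not overlap either, and the log2 fold change of 0.73 ± 0.39 did not pass the test (edgeR adjusted p = 0.948, 0 of 237 targets called, 9 at an unadjusted p under 0.05). In smooth muscle/myofibroblast-like cells Lum was at 638 ± 218 and 660 ± 251 CPM and was too low to be tested.

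Outside the mesenchymal classes no member was called in any of the 7 classes tested. In hepatocyte-like cells the log2 fold changes were 0.15 ± 0.17 for Dcn, 0.37 ± 0.19 for Bgn and 0.23 ± 0.11 for Lum (edgeR adjusted p = 0.820, 0.483 and 0.483, with 0.301% of targets called). In cholangiocyte-like cells Lum was at 568, 524 and 624 CPM in Control and 820, 958 and 662 CPM in HIRA KO areas, which did not overlap, with a log2 fold change of 0.57 ± 0.26 (edgeR adjusted p = 0.703, 0 of 990 targets called, 59 at an unadjusted p under 0.05). The change in mesenchymal-like minus that in all other cells, fitted in 1 edgeR model, was 0.49 ± 0.17 for Lum (p = 0.00494, adjusted p = 0.290). The same difference was -0.21 ± 0.15 for Dcn and -0.0025 ± 0.14 for Bgn (edgeR adjusted p = 0.762 and 0.9995). A difference in the response of Lum between these cells was thus not shown after adjustment.

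Dcn in mesenchymal-like cells was at 12119, 9383 and 16178 CPM in the Control areas and at 8960, 9271 and 15414 CPM in the HIRA KO areas. The third area of each group was the highest, and the groups overlapped widely. The log2 fold change was -0.12 ± 0.32 (edgeR adjusted p = 0.965). Bgn was at 8693, 5789 and 11826 CPM in Control and at 11213, 11197 and 10309 CPM in HIRA KO areas. Control 1 and 2 were below all HIRA KO areas and Control 3 was above them. The log2 fold change was 0.35 ± 0.30 (edgeR adjusted p = 0.880).

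Over all cells together, the question was whether the tissue as a whole held more of each transcript. Dcn was at 3589, 2001 and 4513 CPM in Control and 2902, 2896 and 3028 CPM in HIRA KO areas, and Bgn at 3175, 1588 and 3992 against 3850, 3723 and 2583 CPM. The HIRA KO areas lay inside the Control range for both genes. Lum was at 678, 570 and 574 CPM in Control and 739, 792 and 605 CPM in HIRA KO areas, and HIRA KO 3 fell below Control 1. The log2 fold changes were -0.09 ± 0.28 for Dcn, 0.31 ± 0.31 for Bgn and 0.34 ± 0.11 for Lum (edgeR adjusted p = 0.949, 0.850 and 0.571). In this comparison 2 of 998 targets (0.200%) were called and no member was among them. In sums over cells, fewer cells of a type and less RNA per cell cannot be told apart. Mesenchymal-like cells were 10.2 ± 2.8% of the cells of Control areas and 10.6 ± 3.4% of those of HIRA KO areas (SD, n = 3, exact permutation p = 0.8).

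**Figure D3:**
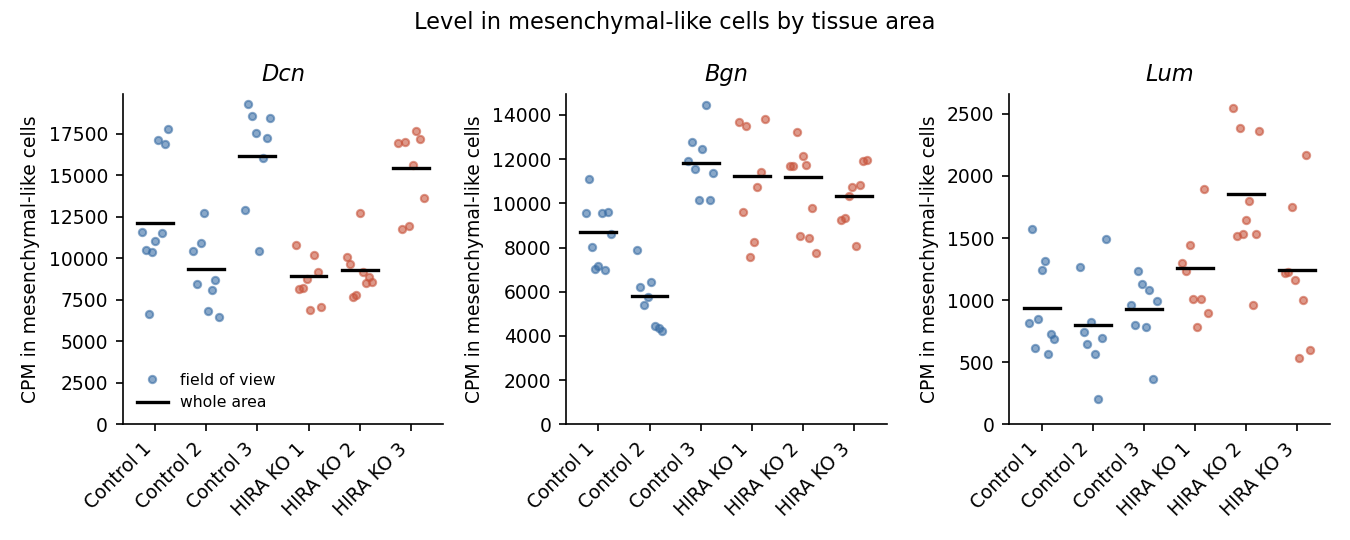
Dcn, Bgn and Lum in mesenchymal-like cells of each tissue area, in CPM; each point is 1 field of view (blue Control, red HIRA KO) and the black line is the level of the whole area. The HIRA KO areas of Lum (1244 to 1852 CPM) all lie above the Control areas (797 to 934 CPM), although single fields overlap, whereas the areas of Dcn and Bgn overlap between the groups.

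On a scale that does not depend on the other targets, counts of every member were higher in each HIRA KO area than in each Control area, and so were those of all targets. Per megapixel of cell area, Dcn counts were 23.2, 17.2 and 27.9 in Control and 29.9, 31.3 and 34.1 in HIRA KO areas. Bgn counts were 20.5, 13.7 and 24.6 against 39.7, 40.3 and 29.05, and Lum counts 4.38, 4.91 and 3.55 against 7.61, 8.56 and 6.80. No member overlapped between the groups on this scale, and the share of single targets without overlap is not given here. The ratio of the group means was 1.39 for Dcn, 1.85 for Bgn and 1.79 for Lum, beside 1.52 for all targets and 1.53 for the mean negative probe, which did not overlap either. Each had p = 0.1 in an exact two-sided permutation test of 3 against 3 areas, the smallest that this design allows.

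The share of mesenchymal-like cells with a count followed the same pattern for Lum. It was 7.87%, 7.54% and 7.96% in Control and 10.9%, 16.5% and 11.1% in HIRA KO areas, with no overlap, and after thinning each cell to 50 counts it was 4.14 ± 0.77% against 7.03 ± 1.06% (SD, n = 3, exact permutation p = 0.1, the smallest possible). In hepatocyte-like cells, where Lum did not exceed the highest negative probe, the share was 7.06 ± 1.58% against 9.27 ± 1.4% with all counts and 2.6 ± 0.16% against 2.49 ± 0.06% after thinning. Median depths of mesenchymal-like cells were 77 to 103.5 counts in Control and 88 to 97.5 counts in HIRA KO areas. Dcn was found in 51.6 ± 5.6% of Control and 54.3 ± 6.4% of HIRA KO mesenchymal-like cells (exact permutation p = 0.6), and Bgn in 47.2 ± 7.1% and 57.7 ± 0.6% (p = 0.1, adjusted p = 0.15 over the members). Thinned, the shares were 41.2 ± 7.8% and 39.2 ± 7.3% for Dcn and 32.8 ± 9.1% and 39.3 ± 1.3% for Bgn (exact permutation p = 0.9 and 0.3). In hepatocyte-like cells with all counts, Dcn was found in 15.7 ± 0.9% and 20.3 ± 2.4% and Bgn in 16 ± 0.9% and 22.5 ± 2.2%. Thinned, these shares were 7.03 ± 1.28% and 7.25 ± 0.17% for Dcn and 7.73 ± 1.75% and 8.78 ± 1.39% for Bgn (exact permutation p = 0.7 and 0.5).

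The balance of Bgn and Dcn did not follow genotype in every area. In mesenchymal-like cells there were 0.717, 0.617 and 0.731 Bgn counts per Dcn count in Control areas and 1.25, 1.21 and 0.669 in HIRA KO areas. HIRA KO 1 and 2 stood above every Control area, and HIRA KO 3 lay among them (exact permutation test of the log2 ratios, p = 0.3). By field of view, Bgn exceeded Dcn in 2 of 9, 0 of 8 and 1 of 8 fields of the Control areas and in 7 of 8, 6 of 9 and 0 of 8 fields of the HIRA KO areas. Stellate-like cells alone gave 0.611, 0.559 and 0.690 against 1.19, 1.16 and 0.636 (exact permutation p = 0.2). All other cells showed the same order of areas within HIRA KO, with 0.948, 0.852 and 1 against 1.35, 1.32 and 0.909 (exact permutation p = 0.3). In portal fibroblast-like cells the ratio was above 1 in all 6 areas, from 1.06 to 1.64. The ratio of Lum to Dcn in mesenchymal-like cells was 0.0771, 0.0849 and 0.0574 in Control and 0.141, 0.1997 and 0.0807 in HIRA KO areas, with HIRA KO 3 below Control 2 (exact permutation p = 0.2).

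**Figure D4:**
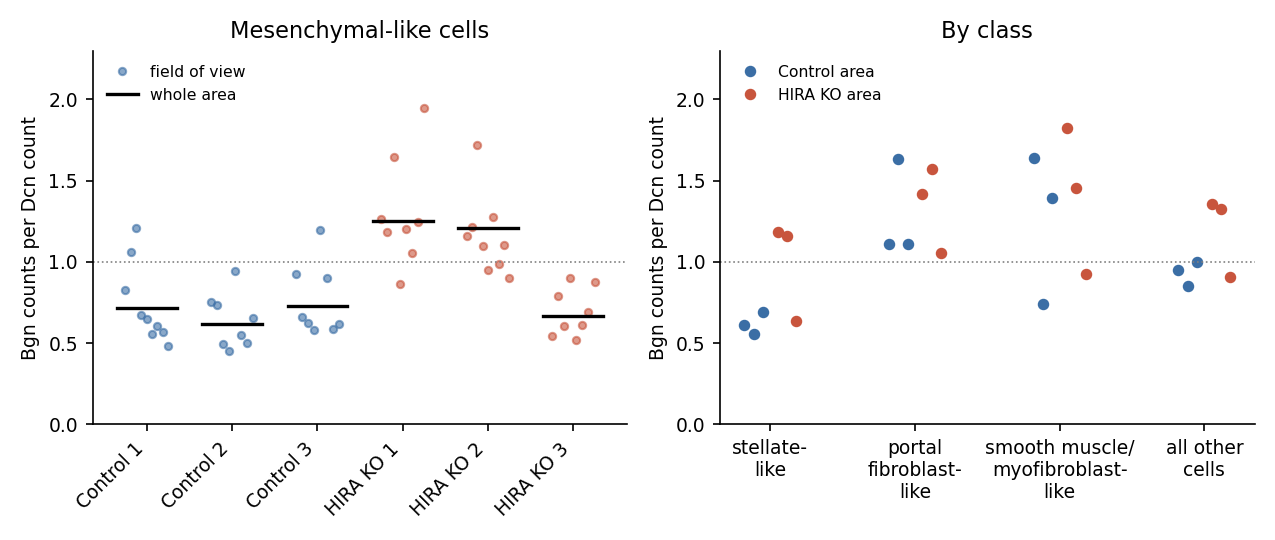
Bgn counts per Dcn count, with points for fields of view and a black line for the whole area in mesenchymal-like cells at the left, and 1 point per tissue area in each class at the right (blue Control, red HIRA KO; the dotted line marks equal counts). HIRA KO 1 and 2 lie at 1.25 and 1.21 in mesenchymal-like cells, above the Control areas, and HIRA KO 3 lies at 0.669.

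Position along the lobule was examined by the distance of mesenchymal-like cells from the nearest cholangiocyte-like cell, taken to mark the portal side. The paper reports more cholangiocytes in HIRA KO livers and a conversion of hepatocytes into them. This distance may therefore not mean the same place in HIRA KO as in Control areas, which was not tested. Cells within 500 pixels were compared with cells beyond 1500 pixels, a band that held only 1 cell in HIRA KO 1 and 4 cells in HIRA KO 2. Near minus far was -0.39 ± 0.39 for Dcn, 1.89 ± 4.08 for Bgn and 1.0 ± 2.97 for Lum on the log2 scale (exact permutation adjusted p = 0.375, 0.1875 and 0.9375 over 12 comparisons). The values for Bgn and Lum are set by the single far cell of HIRA KO 1, which had 0 counts of either, and were 0.23 and -0.19 without that area. With every cell beyond 500 pixels taken as far, a band chosen after the data were seen that held at least 147 cells per area, Bgn was at 10181 ± 2254 CPM near and 9093 ± 2003 CPM far, 0.16 ± 0.14 higher near in 6 of 6 areas (exact permutation p = 0.031, adjusted p = 0.281). In stellate-like cells alone it was 0.18 ± 0.13 higher near, in 5 of 6 areas (exact permutation p = 0.0625). Dcn was at 10432 ± 2984 near and 12503 ± 4079 CPM far, lower near in the 3 Control areas and HIRA KO 3 and higher in HIRA KO 1 and 2, and Lum was at 1160 ± 405 and 1216 ± 388 CPM. From the Glul-led hepatocyte-like cells, which mark the side of the central vein, no member passed the test (exact permutation adjusted p from 0.375 to 0.9375).

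Within cells, transcripts of all members lay outside the nucleus more often than those of the panel as a whole. The platform assigns each transcript inside a cell to nucleus, cytoplasm or membrane. In all cells 32.3 ± 1.9% of Dcn, 35.9 ± 3.6% of Bgn and 40.4 ± 3.9% of Lum transcripts were nuclear (SD, n = 6 areas), against 48.1 ± 3.8% of all targets. Each member was below all targets in 6 of 6 areas (exact sign-flip permutation test, p = 0.031, adjusted p = 0.0402 over 9 comparisons). Of 748 targets ranked, 12 had a lower nuclear share than Dcn, 23 a lower share than Bgn and 67 a lower share than Lum. The 11 collagen partners ranked, collagens and other matrix genes such as Fn1 and Dpt, had a median nuclear share of 46.2% and ran from 36.6% to 55.9%, against a median of 50.5% over the 748 targets.

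In mesenchymal-like cells alone 40.03 ± 2.9% of Dcn and 39.3 ± 2.8% of Bgn transcripts were nuclear, against 51.7 ± 2.6% of all targets and lower in 6 of 6 areas (exact permutation adjusted p = 0.0402). Lum there was at 49.6 ± 4.2%, lower in 5 of 6 areas, and did not pass the test (exact permutation adjusted p = 0.156). Outside any cell lay 5.72 ± 1.06% of Dcn, 5.35 ± 0.96% of Bgn and 7.73 ± 1.98% of Lum transcripts, against 6.84 ± 1.26% of all targets. Dcn was lower in 6 of 6 areas and Lum higher in 6 of 6 (exact permutation adjusted p = 0.0402 each), while Bgn was lower in 5 of 6 areas (adjusted p = 0.0703).

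**Figure D5:**
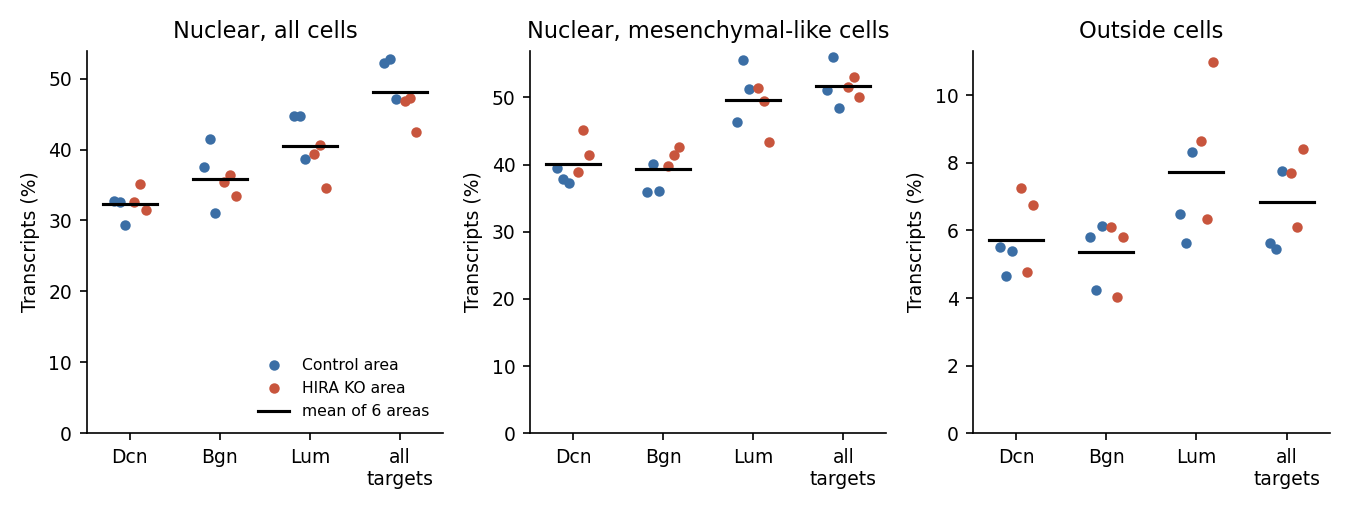
Share of transcripts in percent for Dcn, Bgn, Lum and all gene targets together, by place in the tissue; each point is 1 tissue area (blue Control, red HIRA KO, n = 3 each) and the black line the mean of 6 areas. The nuclear share of Dcn and Bgn lies below that of all targets in every area, in all cells and in mesenchymal-like cells, whereas Lum in mesenchymal-like cells (49.6%) lies close to all targets (51.7%).

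The genes that work with these proteoglycans were followed as lists. Of all 998 targets 475 had a positive fold change over all cells, and scaling by library size alone moved their median from -0.01 to -0.12. Of 4 other proteoglycans in the panel none was called over all cells (edgeR), with a median log2 fold change of 0.01 beside -0.01 for all targets. With library size alone their median was -0.11. Cspg4, a membrane proteoglycan of pericytes, was at 545 ± 83.4 CPM in Control and 490 ± 62.6 CPM in HIRA KO, and Vcan, the large proteoglycan versican, at 478 ± 65.1 and 455 ± 39.04 CPM. The highest negative probe averaged 558 CPM over all cells, above these means of Cspg4 and Vcan. Of 18 collagen partners 1 rose and none fell, beside 0.200% called of all targets. The fold change was positive for 14 of 18, with a median of 0.09, and for 8 of 18 with library size alone, with a median of -0.03. The gene that rose was Col1a1, at 633, 543 and 544 CPM in Control and 1014, 951 and 709 CPM in HIRA KO areas, with a log2 fold change of 0.74 ± 0.12 (SE, edgeR adjusted p = 0.0272). With library size alone it did not pass, at 0.64 (edgeR adjusted p = 0.126). The highest negative probe was at 517, 527 and 604 CPM in the Control areas, so Col1a1 was near it there and below it in Control 3.

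None of 22 receptors and growth factors that these proteins are known to bind was called over all cells (9 of 22 positive, median -0.07, and 0 of 22 and -0.18 with library size alone). Tlr2, a receptor of free biglycan, was at 1182 ± 71.5 CPM in Control and 990 ± 37.4 CPM in HIRA KO, a log2 fold change of -0.14 ± 0.10 (edgeR adjusted p = 0.826), and Bmp2, a BMP ligand, was at 1681 ± 309 and 1334 ± 66.3 CPM (adjusted p = 0.811). None of 9 matrix remodelling enzymes was called. Their median was 0.06 with 9 of 9 positive, and -0.06 with 2 of 9 positive with library size alone. Serpinh1, the collagen chaperone HSP47, was at 944 ± 162 and 1063 ± 162 CPM and Mmp14, a membrane-bound collagenase, at 764 ± 10.3 and 757 ± 46.6 CPM (edgeR adjusted p = 0.676 and 0.850).

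In mesenchymal-like cells, with the markers that name these classes left out, 0 of 4 other proteoglycans, 0 of 13 collagen partners, 0 of 21 receptors and growth factors and 0 of 9 matrix remodelling enzymes were called (edgeR). Their median log2 fold changes were -0.08, 0.19, 0.02 and 0.27, beside -0.0036 for all 998 targets, of which 69 had an unadjusted p under 0.05. The genes that remained had still entered the clustering. Col14a1 was a leading gene of the stellate-like cluster and Mmp2 of the portal fibroblast-like cluster. Mmp2, the target whose pattern over clusters was most like that of Lum, was at 1366 ± 79.4 CPM in Control and 1757 ± 231 CPM in HIRA KO mesenchymal-like cells, a log2 fold change of 0.40 ± 0.18 (SE, edgeR adjusted p = 0.657).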

How the data were processed

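The counts were deposited by the authors unnormalized, 1 whole number for each target in each segmented cell, with cell positions and areas in pixels and a table of single transcripts. Decoding and segmentation were done by the platform, and its software versions and probe coordinates are not given in the sources used here. The members and gene lists were chosen with earlier results of these data known. Cells were filtered as in the study's methods and clustered without Dcn, Bgn and Lum (Pearson residuals, theta 100, clipped at 10, 30 principal components, 20 neighbours, Leiden resolution 1.6, leidenalg 0.10.2, Python 3.11.15). Clusters were named by markers, at least 3 of them raised by over 0.5 (log2). No doublet caller was run on the segmented cells. Counts were summed per area. Negative probes entered neither library sizes nor the edgeR tests. Transcripts outside cells were left out of the main genotype tests. They entered an alternative over all cells, a genotype test of their own (edgeR, 0 of 998 targets called) and the shares by place.

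Genotypes were compared with edgeR 4.0.16 (quasi-likelihood, TMM, filterByExpr) in R 4.3.3, with Benjamini-Hochberg adjustment at 0.05 over all targets. The scripts were tested on simulated data. Classes within areas were compared with exact sign-flip permutation tests. Genes named are the members, the 5 targets most correlated with each over clusters, and from each list those called or else the 2 with the lowest p over all cells. Mesenchymal-like cells of an area had median depths of 77 to 103.5 counts, which limits shares and ratios of Lum. Alternatives were scaling by library size, DESeq2 1.42.0, no filter, the slide row as a block, limma-voom 3.58.1 on fields of view, at least 50 counts per cell, Leiden resolutions 0.8 and 2.4, classes by marker counts, thinning, other distance bands and leaving out each area. Distance bands with at least 20 cells or reaching from 500 pixels, the comparison beside mesenchymal-like cells and the model of the difference between classes were added after seeing the data. Cell outlines and stain intensities were not used here.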

Additional observations from a re-analysis of the deposited data

Results flagged for a closer look

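Among 36 groups of 8 or 9 fields of view, each the fields of 1 tissue area for 1 member over all cells or in mesenchymal-like cells, 2 held a field far from the others by Dixon's criterion, and chance alone flags about 1 in 20 such groups. Lum over all cells of Control 2 was at 787 CPM in field of view 18, against 600 CPM in the next of its 8 fields and 508 CPM in the lowest. Dcn in mesenchymal-like cells of HIRA KO 2 was at 12718 CPM in field of view 30, which held 189 such cells, against 10077 CPM in the next of its 9 fields and 7680 CPM in the lowest. The cause of neither was tested.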

How the results depend on the processing

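The number of targets called over all cells was 2, and it was 1 with library size only, 10 with DESeq2, 17 with the slide row as a block and 11 with limma-voom on fields of view. In mesenchymal-like cells it was 5, and 11 with the slide row, 14 with limma-voom and 2 with classes by marker counts. The limma-voom setting took the area as a random block, with a correlation of 0.082 between fields in mesenchymal-like cells. Fields of view thus entered it nearly as separate samples, unlike the tests over areas. Lum in mesenchymal-like cells kept its call with library size, DESeq2, the slide row, limma-voom, no filter and both other resolutions, and lost it among cells with at least 50 counts (0.67) and with classes by marker counts (0.57). Co-detection of Lum weakened to 12.2 points with Dcn and 5.65 points with Bgn after thinning, and under marker counts to 8.13 points with Bgn, where it was 12.98 with Dcn. Lum near against far from cholangiocyte-like cells reversed to -0.076 with cells beyond 500 pixels as far and to -0.10 in areas with at least 20 cells in both bands, both of which take away the far band of 1 cell in HIRA KO 1. The cause of the other changes was not tested.

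Leaving out each area in turn gave log2 fold changes over all cells of -0.37 to 0.21 for Dcn, -0.0035 to 0.63 for Bgn and 0.27 to 0.43 for Lum, and 1 to 3 targets called. In mesenchymal-like cells it gave -0.45 to 0.15 for Dcn, 0.10 to 0.67 for Bgn and 0.54 to 0.89 for Lum, and 2 to 6 targets called. Mesenchymal-like against other cells ran from 2.23 to 2.37 for Dcn, 1.92 to 2.02 for Bgn and 0.76 to 0.95 for Lum, where 5 areas cannot give a p under 0.0625. Counts per cell area ran from 0.31 to 0.65 for Dcn, 0.69 to 1.09 for Bgn and 0.72 to 0.95 for Lum (log2). Co-detection ran from 27.4 to 28.9 points for Dcn and Bgn, 21.1 to 23.05 for Dcn and Lum and 16.5 to 18.5 for Bgn and Lum. Near against far ran from -0.51 to -0.29 for Dcn, 0.23 to 2.26 for Bgn and -0.19 to 1.36 for Lum. Of 227 alternative values 158 stayed the same, 56 were weaker, 5 were stronger and 8 changed direction. The areas were paired across genotypes only by slide row, as above. Averaged over areas, Lum did not exceed the highest negative probe in hepatocyte-like, neutrophil-like and smooth muscle/myofibroblast-like cells.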
